A study of Mus musculus with 12 samples.

Results

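The genes described here are regulators of pre-mRNA splicing in 9 families of RNA-binding proteins, measured in the spinal cord of mice with severe spinal muscular atrophy (SMA). Members were all genes whose probe set carried a single gene symbol of the Hnrnp, Srsf, Celf, Elavl, Ptbp, Nova, Rbfox, Mbnl or Khdrbs families. This gave 46 genes of the 12393 genes with such a probe set on the array, and 129 probe sets. They were 18 hnRNP genes, 9 SR genes, 3 CELF, 4 ELAVL, 3 PTBP, 3 RBFOX, 2 MBNL and 3 KHDRBS genes, and Nova1. Where a gene had several probe sets, the one with the highest mean log2 signal over all arrays stands for it below. A further 10 genes of these families, among them Mbnl2, Nova2, Hnrnpa3 and Srsf7, had no probe set matched to them alone and were not analysed here.

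The study put RNA from 12 mice, each 13 days old, on 12 expression arrays in 3 groups of 4. SMA ceftriaxone mice (mSmn-/-) received ceftriaxone, a beta-lactam antibiotic, at 200 mg/kg daily by intraperitoneal injection from day 5. SMA vehicle mice (mSmn-/-) and wildtype mice (mSmn+/-) received vehicle. All groups came from line 4299 on an FVB.Cg background and carried the human transgenes SMN2+/+ and SmnΔ7+/+, so the wildtype group is heterozygous for the mouse gene and not free of transgenes. The labels name both whole cords and lumbar segments L1–L5 of PFA-perfused mice, and they give no sex. Nothing in them says whether the mice of a group came from separate litters, so p-values measure the spread between these arrays.

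Splicing regulators bind short sequence elements in pre-mRNA and decide which exons are kept. hnRNP proteins often repress an exon and SR proteins often enhance it, while NOVA, RBFOX, CELF, neuronal ELAVL and PTBP2 proteins shape the exon choices of neurons, and MBNL proteins favour the exon choices of mature tissue. In SMA the theme is direct: SMN2 transcripts mostly skip a coding exon, and SRSF1 and Tra2 proteins are known to favour its inclusion in human cells, while HNRNPA1 and KHDRBS1 (Sam68) are known to favour skipping.

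Each value is the MAS5 signal of a probe set, on the authors' scale in which the trimmed mean of every array was 700.2 to 700.3. Differences are on the log2(signal + 16) scale, each ± its standard error (SE), and a gene is said to have risen or fallen where limma's test, adjusted by Benjamini-Hochberg over 13575 probe sets, gave an adjusted p under 0.05. Of the 46 members, 45 were bright enough to be tested. Mbnl3, the remaining one, had signals of 5.1 to 12.8 in SMA ceftriaxone cords, 11.6 to 20.9 in SMA vehicle cords and 7.8 to 11.1 in 3 wildtype cords, but 409.9 in wildtype array 2, and is given no fold. The deleted gene followed the labels: Smn1 had signals of 3.3 to 15.8 in SMA ceftriaxone cords and 3.6 to 5.7 in SMA vehicle cords, against 263.4 to 414.3 in wildtype cords.

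Wildtype array 2 stood apart from the other wildtype arrays and touches most results below. Its log2 signals correlated with theirs at 0.924 to 0.93, against 0.986 to 0.989 among the other 3. Summed over 8 thymocyte markers its signal was 28450.3, against 119.9 to 232.8 in the other wildtype arrays. Over 7 markers of cycling cells it was 22293.2, against 4493.0 to 4663.1. Among the splicing regulators, its signal exceeded every other wildtype array in 34 of 46 genes, including 17 of 18 hnRNP genes and all 9 SR genes. It lay below every other wildtype array in 11 genes, namely Hnrnpul2, Nova1, Rbfox1, Rbfox3, Elavl2, Elavl3, Elavl4, Ptbp2, Celf4, Khdrbs2 and Khdrbs3. Ptbp1 shows the scale of this, with a signal of 3403 in wildtype array 2 against 853.2, 801.0 and 828.3 in the other wildtype arrays. Results are therefore given with all arrays and again without wildtype array 2.

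**Figure D1:**
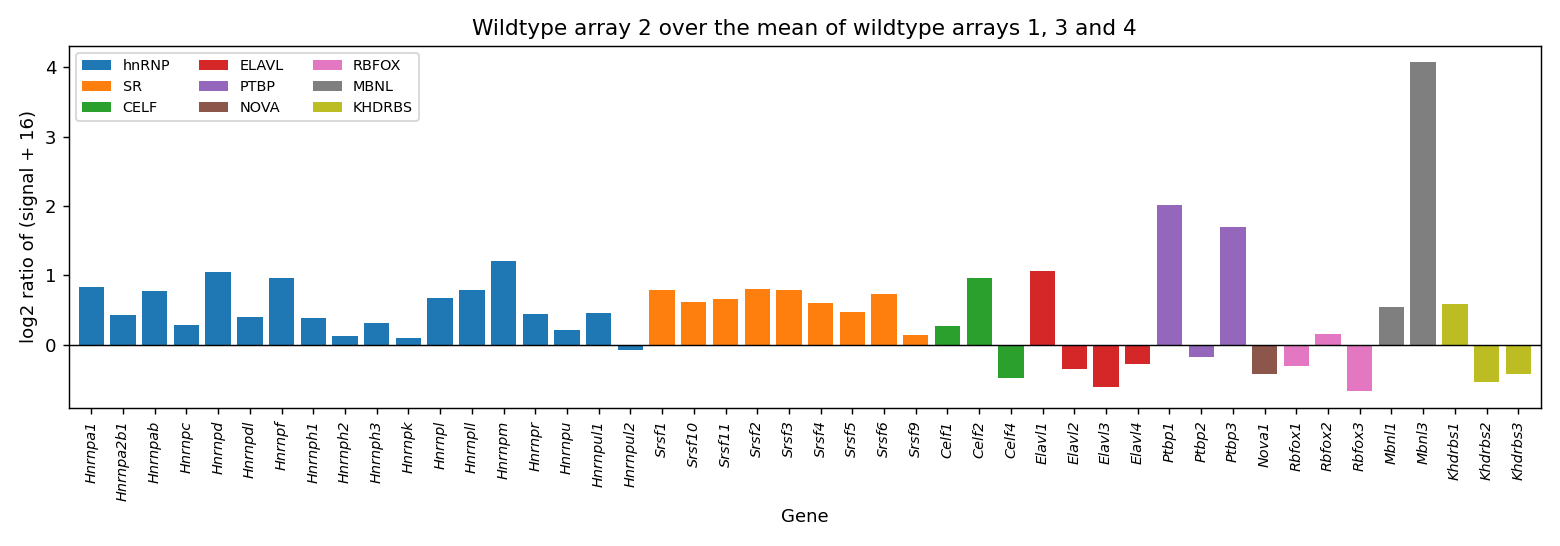
Log2 ratio of the signal (plus 16) in wildtype array 2 to the mean of wildtype arrays 1, 3 and 4, 1 bar per gene, coloured by family. Bars of the hnRNP and SR genes point up, with Hnrnpul2 the exception, while those of Nova1, Rbfox1, Rbfox3, Celf4 and most ELAVL and KHDRBS genes point down, and Mbnl3 has the tallest bar.

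The arrays also differed in Xist, and unevenly between groups. The RNA is made in females, by the silenced X chromosome, and its signal exceeded 1000 in all 4 SMA ceftriaxone arrays, in SMA vehicle arrays 1 and 4 and in wildtype array 3, while it was 20.9 to 74.2 in the others. Markers of cell types also moved between the groups. Summed over 7 markers of mature oligodendrocytes, the signal was 56460.0 to 65888.0 in SMA ceftriaxone cords, 11509.0 to 26644.0 in SMA vehicle cords and 66147.9 to 82966.7 in wildtype cords without array 2. All 7 fell in SMA vehicle cords against wildtype and all 7 rose in SMA ceftriaxone cords against SMA vehicle. Over 8 markers of immature neurons it was 27944.6 to 35640.5 in SMA ceftriaxone cords, 51616.6 to 63361.8 in SMA vehicle cords and 24574.4 to 26962.6 in the same wildtype cords. Of these, 7 rose in the first comparison and all 8 fell in the second. For 8 markers of mature neurons the sums were 51601.9 to 58623.5 in SMA ceftriaxone cords, 50858.5 to 56808.5 in SMA vehicle cords and 62629.2 to 67111.1 in wildtype cords without array 2. The neurofilament genes Nefh (-1.33) and Nefm (-0.37) fell in SMA vehicle cords against wildtype, while Syt1 (0.99), Slc17a6 (0.48), Gad1 (0.46) and Syn1 (0.38) rose, so that the median of the 8 was 0.10 and the sums do not stand for each marker. Of the 8, 4 rose and 4 fell without wildtype array 2. With ceftriaxone against SMA vehicle, 1 of the 8 rose and 2 fell. Hox genes that mark position along the cord moved too, in tissue that the labels call both whole and lumbar. All 5 rose in SMA vehicle cords against wildtype, with a median of 0.89, and 3 of 5 fell with ceftriaxone against SMA vehicle, with a median of -0.79. Their signals summed to 5185.2 to 6034.7 in SMA ceftriaxone cords, 7013.6 to 9211.6 in SMA vehicle cords and 4552.6 to 4942.5 in wildtype cords without array 2. In the same comparisons, microglia markers fell for 4 of 6 and rose for 4 of 6, and endothelium markers fell for 3 of 5 and rose for 3 of 5. Among 6 astrocyte markers 2 rose and 3 fell in SMA vehicle cords, and 4 rose with ceftriaxone. Skeletal muscle markers summed to 256.9 to 767.4 in SMA ceftriaxone cords, 2449.1 to 6069.7 in SMA vehicle cords and 599.6 to 1662.1 in wildtype cords. Markers of cycling cells summed to 4126.3 to 5661.9 in SMA ceftriaxone cords, 5177.8 to 5781.9 in SMA vehicle cords and 4493.0 to 4663.1 in wildtype cords without array 2. Leaving that array out, 4 of 7 rose in SMA vehicle cords against wildtype and 2 fell with ceftriaxone against SMA vehicle. With all arrays none of them was called. The part of these cell types and of cord position in the results on splicing regulators was not tested, and that of Xist was examined only through the fits named below. In these bulk samples, fewer cells of a type and less RNA per cell cannot be told apart.

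SMA vehicle cords were compared with wildtype cords to see which regulators differ with the disease genotype. Of the 45 genes tested, 22 rose in SMA vehicle cords, 2 fell and 21 passed in neither direction, with a median log2 difference of 0.31. Over all 8004 genes tested, 25.5% rose, 23.6% fell and the median was 0.01. Without wildtype array 2, 32 members rose, 2 fell and the median was 0.40, against 31.1% and 29.0% of all genes. The arrays of the groups did not overlap for 17 members higher and 2 lower in SMA vehicle cords, against 24.1% and 20.7% of all genes. Without wildtype array 2 these numbers were 33 and 2, against 33.0% and 29.9%. The members that fell were Mbnl1 and Srsf10 in both fits.

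SMA ceftriaxone cords were compared with SMA vehicle cords to ask what ceftriaxone altered among the mSmn-/- mice. Here 2 members rose, 22 fell and 21 passed in neither direction, with a median log2 difference of -0.30, while 19.9% of all genes tested rose and 17.8% fell around a median of 0.00. Without wildtype array 2, which enters this comparison only through the shared estimate of spread, 2 rose and 29 fell, against 26.5% and 25.6% of all genes. The arrays did not overlap for 2 members higher and 24 lower in SMA ceftriaxone cords, against 24.0% and 23.4% of all genes. Mbnl1 and Srsf10 were the members that rose. With Xist signal as a covariate 11 members fell, the calls lost being those of Celf2, Hnrnpa1, Hnrnpc, Hnrnpd, Hnrnpl, Hnrnpr, Khdrbs1, Nova1, Rbfox2, Srsf3 and Srsf6. With the same covariate and without wildtype array 2, 24 fell and Rbfox2 was the call lost, and with the 7 arrays of high Xist signal alone 22 fell, without Hnrnpc and Rbfox2. This comparison and the one before it share the SMA vehicle arrays, so opposite signs in them are not independent of each other.

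**Figure D2:**
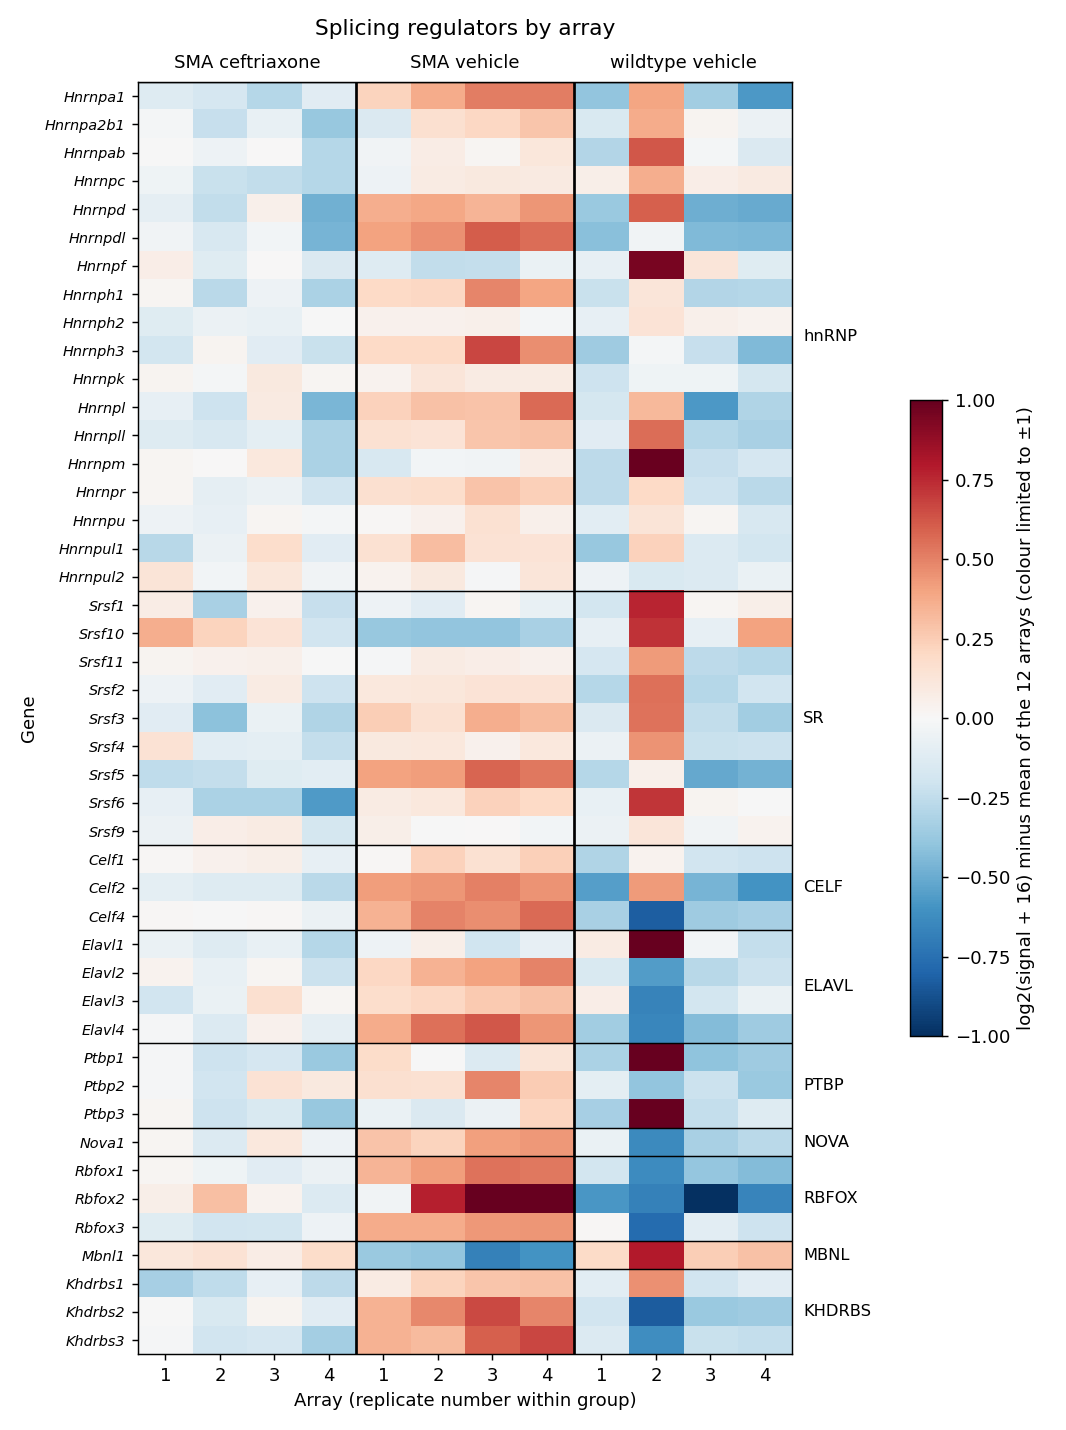
Log2(signal + 16) of the 45 tested splicing regulators (rows, by family) in each of the 12 arrays (columns, by group), minus the gene's mean over the 12 arrays, with the colour limited to 1 in each direction. Most rows are red in the SMA vehicle arrays, Mbnl1 and Srsf10 are blue there, and the column of wildtype array 2 departs from its group.

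To show the regions from which genes of opposite direction are transcribed, the 250 bases before the annotated start are printed for 4 members with 1 window each in the RefSeq table (build GRCm38.p6). They are Rbfox3, whose protein is the neuronal marker NeuN, Hnrnpdl and Srsf5, which had the largest rise of the hnRNP and SR genes in SMA vehicle cords, and Srsf10, which fell there. The windows are chr11:118761042-118761291 on the minus strand for Rbfox3, chr5:100039223-100039472 on the minus strand for Hnrnpdl, chr12:80945249-80945498 on the plus strand for Srsf5 and chr4:135855821-135856070 on the plus strand for Srsf10. Each is read 5′ to 3′ on the gene's strand. Capitals mark the letters GGGCGG of a GC box on either strand. They also mark, on either strand, a CCAAT box, which is named by its letters, the TATA box searched as TATAAA, and the cAMP response element searched as TGACGTCA.
Rbfox3: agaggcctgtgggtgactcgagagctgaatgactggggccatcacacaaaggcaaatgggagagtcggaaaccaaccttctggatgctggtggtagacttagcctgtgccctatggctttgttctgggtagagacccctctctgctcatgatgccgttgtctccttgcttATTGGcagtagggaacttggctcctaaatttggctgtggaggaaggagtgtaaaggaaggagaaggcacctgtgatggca
Hnrnpdl: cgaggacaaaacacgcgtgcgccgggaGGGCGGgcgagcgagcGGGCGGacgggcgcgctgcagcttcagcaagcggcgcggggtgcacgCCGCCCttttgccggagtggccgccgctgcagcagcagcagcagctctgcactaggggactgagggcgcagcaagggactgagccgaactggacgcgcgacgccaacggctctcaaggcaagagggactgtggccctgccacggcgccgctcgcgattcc
Srsf5: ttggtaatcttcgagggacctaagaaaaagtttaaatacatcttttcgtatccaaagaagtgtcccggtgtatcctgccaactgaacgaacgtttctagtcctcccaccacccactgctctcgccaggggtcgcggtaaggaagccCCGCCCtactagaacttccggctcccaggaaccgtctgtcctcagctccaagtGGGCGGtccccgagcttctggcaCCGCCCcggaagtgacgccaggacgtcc
Srsf10: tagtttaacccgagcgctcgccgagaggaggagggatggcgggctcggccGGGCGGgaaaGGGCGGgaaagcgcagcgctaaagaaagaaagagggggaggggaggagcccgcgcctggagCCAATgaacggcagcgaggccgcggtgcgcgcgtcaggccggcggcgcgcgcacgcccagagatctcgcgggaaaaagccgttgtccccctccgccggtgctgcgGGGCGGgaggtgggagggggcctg
The windows of Hnrnpdl, Srsf5 and Srsf10 hold 3 GC boxes each, so the gene that fell has as many as these genes that rose, and Srsf10 has a CCAAT box as well. Of the marked motifs, the Rbfox3 window holds a CCAAT box only. CG dinucleotides number 3 in the Rbfox3 window, 33 in that of Hnrnpdl, 17 in that of Srsf5 and 33 in that of Srsf10, against a median of 16 over the 8586 windows of genes tested. RefSeq windows were at hand for 39 of the 46 members, 65 windows in all. A GC box stood in 63.1% of these, against 59.0% of the windows of genes tested, and a CCAAT box in 49.2%, against 34.8%. The TATA box was in 9.23% and 6.29%, and the E-box CANNTG, not marked above, in 56.9% and 56.5%. Some genes have several windows that overlap, and each window was counted. By gene, a GC box stood in 27 of the 39 members with a window and a CCAAT box in 22, and no share by gene was taken over the genes tested. These matches are descriptions of the letters only.

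RBFOX proteins bind a GCAUG element beside alternative exons of neurons and muscle. All 3 RBFOX genes rose in SMA vehicle cords and all 3 fell in SMA ceftriaxone cords, against 25.5% and 17.8% of all genes tested. Rbfox1 had signals of 5175, 4968, 4717 and 4893 in SMA ceftriaxone cords, 6464, 6844, 7469 and 7356 in SMA vehicle cords, and 4484, 3302, 3900.3 and 3783 in wildtype cords. The 3 groups did not overlap for this gene: SMA vehicle cords were highest and wildtype cords lowest. Its log2 difference was 0.87 ± 0.09 (adjusted p = 6.26e-06) between SMA vehicle and wildtype, and -0.51 ± 0.09 (adjusted p = 0.000691) between SMA ceftriaxone and SMA vehicle cords. Rbfox2 had signals of 633.9, 754.7, 623.6 and 551.5 in SMA ceftriaxone cords, 593.7, 1057, 1287 and 1436 in SMA vehicle cords, and 401.2, 375.2, 227.6 and 379.7 in wildtype cords. It had the largest rise of all 45 members in SMA vehicle cords, 1.57 ± 0.24 (adjusted p = 0.000162), but SMA vehicle array 1, at 593.7, lay among the SMA ceftriaxone arrays and well below its own group. Its fall in SMA ceftriaxone cords, -0.69 ± 0.24 (adjusted p = 0.0397), was lost without SMA ceftriaxone array 1, 3 or 4, or SMA vehicle array 2, 3 or 4 (highest adjusted p = 0.126). A second, dimmer Rbfox2 probe set rose by 0.70 (adjusted p = 0.000352) in SMA vehicle cords and fell by 0.43 (adjusted p = 0.0131) in SMA ceftriaxone cords. Rbfox3 had signals of 508.5, 484.9, 486.9 and 537.1 in SMA ceftriaxone cords, 724.6, 724.0, 754.9 and 758.2 in SMA vehicle cords, and 560.1, 319.6, 514.9 and 479.1 in wildtype cords. SMA vehicle cords lay above both other groups without overlap, and the SMA ceftriaxone range lay inside the wildtype range. The log2 difference was 0.67 ± 0.14 (adjusted p = 0.00122) between SMA vehicle and wildtype (0.50 ± 0.07, adjusted p = 8.07e-05, without wildtype array 2) and -0.54 ± 0.14 (adjusted p = 0.00759) between SMA ceftriaxone and SMA vehicle cords.

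Nova1 encodes a neuronal KH-domain protein that binds YCAY clusters and was first known as an autoimmune antigen of the nervous system. Its signals were 2199.5, 1970.3, 2331 and 2093 in SMA ceftriaxone cords, 2640.3, 2535, 2891 and 2939 in SMA vehicle cords, and 2073, 1386, 1723 and 1797 in wildtype cords. All SMA vehicle arrays lay above all others, and wildtype array 2 was the lowest of the 12. Nova1 rose by 0.66 ± 0.11 log2 units (adjusted p = 0.000243) in SMA vehicle cords. In SMA ceftriaxone cords the log2 difference was -0.35 ± 0.11 (adjusted p = 0.0209), and this fall was lost without SMA ceftriaxone array 2 or 4, or SMA vehicle array 3 or 4 (highest adjusted p = 0.066). The other Nova1 probe set differed more, by 1.16 (adjusted p = 4.81e-05) and -0.68 (adjusted p = 0.00392) in the same comparisons. The summed signal of immature neuron markers, given above, was also highest in SMA vehicle cords, as were those of skeletal muscle markers and Hox genes.

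ELAVL proteins bind AU-rich elements in introns and in mature transcripts. Elavl1 (HuR) is made in most cells and Elavl2, Elavl3 and Elavl4 mainly in neurons. The 3 neuronal genes rose in SMA vehicle cords, where 25.5% of all genes tested rose. Elavl1 was not called there, at -0.28 ± 0.20 with all arrays and -0.01 ± 0.09 without wildtype array 2. Elavl2 had signals of 4792, 4425, 4720.0 and 4011 in SMA ceftriaxone cords, 5379, 5927, 6169.5 and 6585 in SMA vehicle cords, and 4186, 3155, 3843 and 4025 in wildtype cords. Its wildtype and SMA ceftriaxone ranges overlapped, while SMA vehicle arrays lay above both. Elavl2 differed by a log2 value of 0.66 ± 0.10 (adjusted p = 0.000106) in SMA vehicle cords and -0.42 ± 0.10 (adjusted p = 0.00449) in SMA ceftriaxone cords against SMA vehicle. Elavl3 had signals of 1999, 2175, 2551 and 2313 in SMA ceftriaxone cords, 2584, 2632, 2743 and 2807 in SMA vehicle cords, and 2386, 1432, 2008 and 2179 in wildtype cords. SMA vehicle arrays were again the highest, by a narrow margin over SMA ceftriaxone array 3. It rose by 0.45 ± 0.13 log2 units (adjusted p = 0.0125) in SMA vehicle cords, while its log2 difference in SMA ceftriaxone cords was not called at -0.26 ± 0.13 (adjusted p = 0.146) (-0.26 ± 0.08, adjusted p = 0.014, without wildtype array 2). Of its other 2 probe sets, 1 rose in SMA vehicle cords (0.31, adjusted p = 0.0465) and 1 was not called (0.29, adjusted p = 0.0971), and without wildtype array 2 neither passed, at 0.19 (adjusted p = 0.0811) and 0.11 (adjusted p = 0.144). Both fell in SMA ceftriaxone cords, by 0.38 (adjusted p = 0.0242) and 0.40 (adjusted p = 0.0348), where the brightest was not called. Elavl4 had signals of 1602, 1466, 1665 and 1517 in SMA ceftriaxone cords, 2100.5, 2382, 2497 and 2202 in SMA vehicle cords, and 1270.2, 1026, 1190.3 and 1258 in wildtype cords. Its 3 groups did not overlap, in the order SMA vehicle, SMA ceftriaxone, wildtype from high to low. It rose by 0.95 ± 0.09 log2 units (adjusted p = 3.19e-06) in SMA vehicle cords, the smallest adjusted p of the 45 members, and the log2 difference in SMA ceftriaxone cords was -0.55 ± 0.09 (adjusted p = 0.000393). Its other tested probe sets rose by 0.68 and 0.85 log2 units, and those of Elavl2 by 0.58 to 1.13.

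CELF proteins bind GU-rich elements, with Celf4 mainly in neurons and Celf1 and Celf2 in many tissues. All 3 genes rose in SMA vehicle cords, and Celf2 and Celf4 fell in SMA ceftriaxone cords, against 25.5% and 17.8% of all genes tested. Celf1 had signals of 3937, 4021, 4058 and 3673 in SMA ceftriaxone cords, 3930.2, 4573, 4324 and 4594 in SMA vehicle cords, and 3167, 4002, 3409 and 3375 in wildtype cords. SMA vehicle array 1 lay within the range of the SMA ceftriaxone arrays, and wildtype array 2 above it. The log2 difference was 0.32 ± 0.08 (adjusted p = 0.00501) in SMA vehicle cords and -0.15 ± 0.08 (adjusted p = 0.168) in SMA ceftriaxone cords, which was not called. None of the 3 other tested Celf1 probe sets was called in SMA vehicle cords with all arrays (differences 0.13 to 0.16; without wildtype array 2, 1 of them rose by 0.48), and the mean of all its probe sets was not called. Celf2 had signals of 1709, 1674, 1669 and 1510.5 in SMA ceftriaxone cords, 2446, 2494, 2599 and 2497 in SMA vehicle cords, and 1243, 2458, 1319 and 1205 in wildtype cords. Wildtype array 2 alone, at 2458, reached the level of the SMA vehicle arrays. Celf2 rose by 0.75 ± 0.17 log2 units (adjusted p = 0.0032) with all arrays and by 0.99 ± 0.06 log2 units (adjusted p = 2.39e-07) without that array, and the log2 difference in SMA ceftriaxone cords was -0.61 ± 0.17 (adjusted p = 0.0159). Celf4 had signals of 3028, 2999, 3037 and 2887 in SMA ceftriaxone cords, 3839, 4237, 4160.1 and 4458 in SMA vehicle cords, and 2395, 1695, 2346 and 2380.4 in wildtype cords. The SMA ceftriaxone arrays lay between the other groups, overlapping neither, and wildtype array 2 was the lowest array. Celf4 differed by a log2 value of 0.93 ± 0.10 (adjusted p = 1.2e-05) in SMA vehicle cords and -0.48 ± 0.10 (adjusted p = 0.00278) in SMA ceftriaxone cords.

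PTBP proteins bind pyrimidine tracts and repress exons: Ptbp1 in most cells other than neurons, Ptbp2 in neurons as they form. Ptbp2 had signals of 2665, 2351, 2971 and 2877 in SMA ceftriaxone cords, 3013, 2999, 3774 and 3206 in SMA vehicle cords, and 2509, 2038, 2316 and 2080.1 in wildtype cords. SMA vehicle arrays lay above all others by a small margin. Ptbp2 rose by 0.53 ± 0.10 log2 units (adjusted p = 0.000724) in SMA vehicle cords. Its log2 difference in SMA ceftriaxone cords was not called at -0.26 ± 0.10 (adjusted p = 0.0625), and without wildtype array 2 it passed at an adjusted p of 0.0342. Ptbp1 and Ptbp3 were not called with all arrays in these comparisons. Ptbp1 had signals of 1059, 919.2, 948.7 and 821.0 in SMA ceftriaxone cords, 1214, 1064, 965.3 and 1163 in SMA vehicle cords, and 853.2, 3403, 801.0 and 828.3 in wildtype cords. Wildtype array 2 was the highest of all, and the other 3 wildtype arrays the lowest but for SMA ceftriaxone array 4. The Ptbp1 difference in SMA vehicle cords was -0.10 ± 0.35 (adjusted p = 0.832) with all arrays and had the opposite sign without wildtype array 2, 0.40 ± 0.09 (adjusted p = 0.00277). For Ptbp3 it was -0.21 ± 0.31 with all arrays and 0.22 ± 0.11 without that array, called in neither.

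Mbnl1 was the member of largest fall in SMA vehicle cords. Its protein, sequestered by repeat RNA in myotonic dystrophy, drives the switch from fetal to adult exons in heart and skeletal muscle. Mbnl1 had signals of 3374, 3454, 3283 and 3551 in SMA ceftriaxone cords, 2410.4, 2378, 1953 and 2059 in SMA vehicle cords, and 3564, 5422, 3713 and 3819 in wildtype cords. The 3 groups did not overlap, with SMA vehicle cords lowest. The log2 difference was -0.89 ± 0.12 (adjusted p = 5.79e-05) between SMA vehicle and wildtype (-0.75 ± 0.07, adjusted p = 3.62e-06, without wildtype array 2) and 0.64 ± 0.12 (adjusted p = 0.0013) between SMA ceftriaxone and SMA vehicle cords. It had 1 probe set on the array. The summed signal of mature oligodendrocyte markers, given above, moved in the same direction across the groups. Those of astrocyte and microglia markers were likewise lowest in SMA vehicle cords when wildtype array 2 was left out.

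KHDRBS proteins are a family of STAR-domain proteins. Khdrbs1 (Sam68) is made widely and Khdrbs2 (SLM1) and Khdrbs3 (SLM2) mainly in the brain, where they act on neurexin exons. Khdrbs1 had signals of 2412, 2548, 2860.0 and 2533 in SMA ceftriaxone cords, 3210.3, 3550.4, 3688 and 3713 in SMA vehicle cords, and 2821, 4165, 2652 and 2803 in wildtype cords. SMA ceftriaxone arrays overlapped the lower wildtype arrays, and wildtype array 2 was the highest of all. Its log2 difference in SMA vehicle cords was 0.21 ± 0.12 (adjusted p = 0.182) with all arrays and 0.36 ± 0.07 (adjusted p = 0.000733) without wildtype array 2, and it fell in SMA ceftriaxone cords by 0.45 ± 0.12 (adjusted p = 0.0121). The probe set is of a type that can cross-hybridise with related sequences. A dimmer Khdrbs1 probe set rose in SMA vehicle cords with all arrays, by 0.37 (adjusted p = 0.0357). Its difference in SMA ceftriaxone cords was -0.59 (adjusted p = 0.00454). With all arrays, the other tested ones were not called in SMA vehicle cords (0.19, 0.35 and 0.59, lowest adjusted p = 0.103). Without wildtype array 2, those at 0.19 and 0.35 rose, by 0.36 (adjusted p = 0.00689) and 0.57 (adjusted p = 8.04e-05). The one at 0.59 was again not called (adjusted p = 0.116). In the same order, with all arrays, these probe sets differed in SMA ceftriaxone cords by -0.29 (adjusted p = 0.157), -0.57 (adjusted p = 0.0188) and -1.61 (adjusted p = 0.0524). Without wildtype array 2 all of them fell there (highest adjusted p = 0.0194). Khdrbs2 had signals of 314.7, 283.1, 322.8 and 291.3 in SMA ceftriaxone cords, 407.0, 446.9, 508.7 and 448.0 in SMA vehicle cords, and 275.0, 169.9, 240.6 and 243.1 in wildtype cords. Its groups did not overlap and SMA vehicle cords were highest. Khdrbs2 differed by a log2 value of 0.93 ± 0.13 (adjusted p = 7.85e-05) in SMA vehicle cords and -0.55 ± 0.13 (adjusted p = 0.00528) in SMA ceftriaxone cords. Khdrbs3 had signals of 782.8, 691.0, 703.1 and 620.1 in SMA ceftriaxone cords, 1013, 989.2, 1205 and 1264 in SMA vehicle cords, and 718.9, 508.0, 675.2 and 667.8 in wildtype cords. SMA vehicle arrays were the highest, and the SMA ceftriaxone arrays overlapped the wildtype range. It rose by 0.79 ± 0.12 log2 units (adjusted p = 0.000155) in SMA vehicle cords, and the log2 difference in SMA ceftriaxone cords was -0.66 ± 0.12 (adjusted p = 0.00109).

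**Figure D3:**
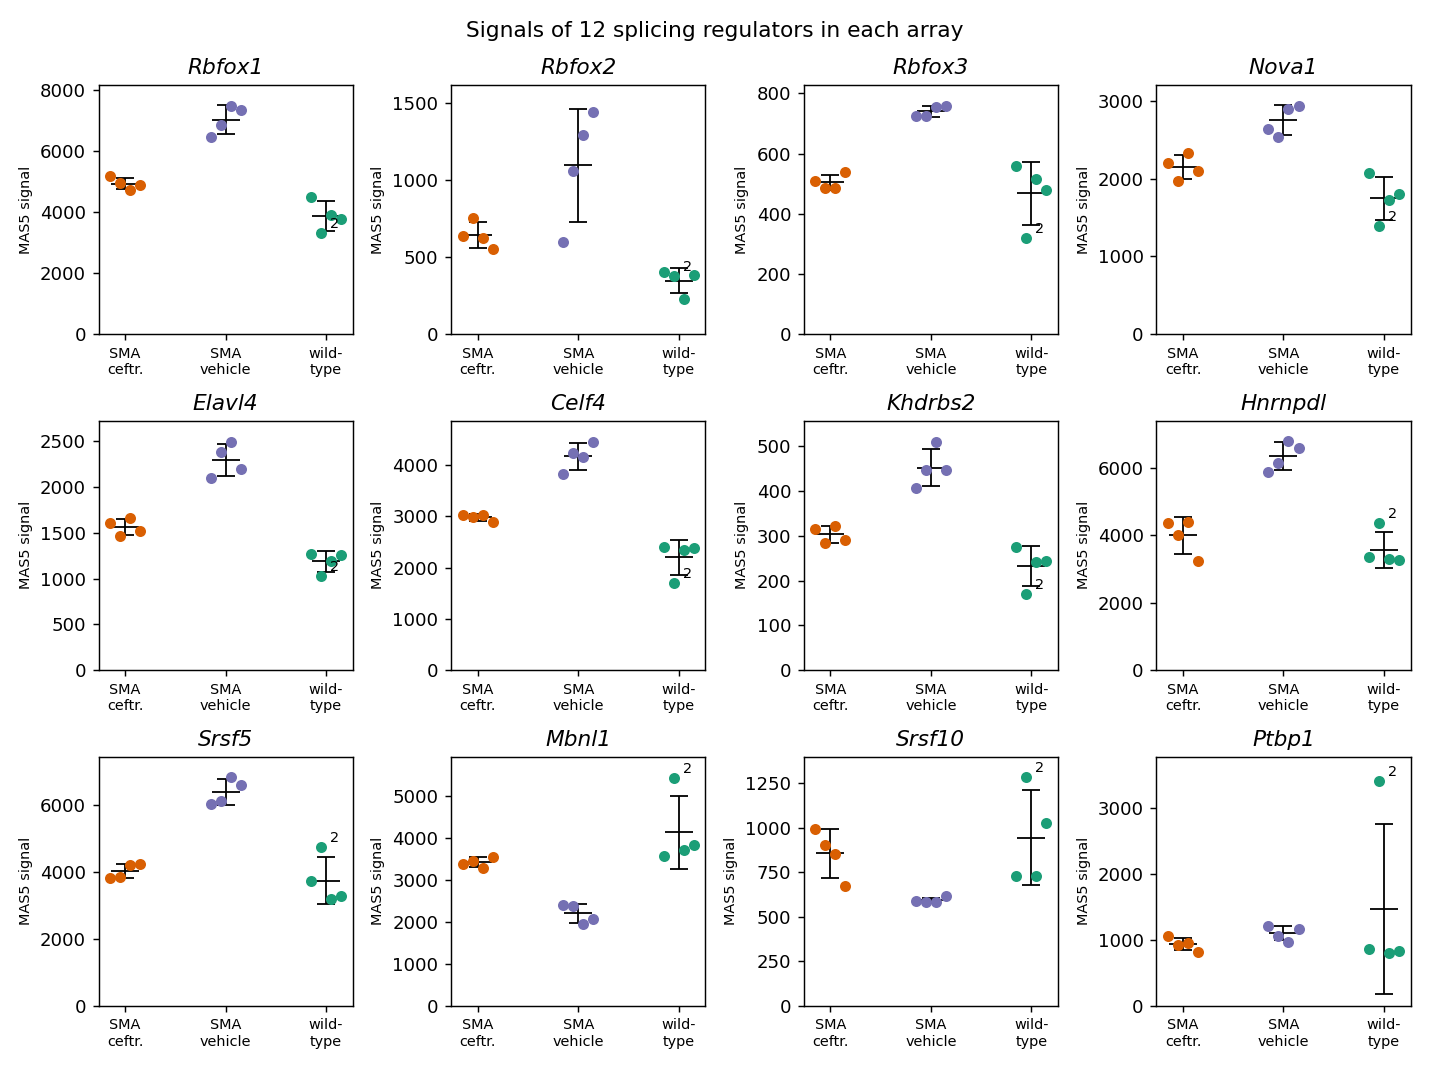
MAS5 signal of 12 splicing regulators in each array, with SMA ceftriaxone, SMA vehicle and wildtype groups from left to right, points for arrays, and a horizontal mark and bars for the mean and SD of 4 arrays. The number 2 marks wildtype array 2, which is the lowest wildtype point for Nova1, Celf4 and Khdrbs2 and the highest for Hnrnpdl, Srsf5, Mbnl1, Srsf10 and Ptbp1.

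Of the 18 hnRNP genes, 8 rose in SMA vehicle cords with a family median of 0.23, and the other 10 were not called, while 25.5% of all genes rose. Without wildtype array 2, 12 rose and the median was 0.32, against 31.1% of all genes. Against SMA vehicle cords, 8 fell in SMA ceftriaxone cords, with a median of -0.27, against 17.8% of all genes, and without wildtype array 2 the number was 11, against 25.6%. Hnrnpdl, a relative of AUF1 that controls its own transcript through splicing, had signals of 4372, 4002, 4399 and 3238 in SMA ceftriaxone cords, 5903, 6152, 6805 and 6604 in SMA vehicle cords, and 3351, 4362, 3286 and 3276 in wildtype cords. SMA vehicle arrays lay far above all others, and wildtype array 2 fell within the SMA ceftriaxone range. Hnrnpdl differed by a log2 value of 0.84 ± 0.11 (adjusted p = 5.83e-05) in SMA vehicle cords and -0.68 ± 0.11 (adjusted p = 0.000629) in SMA ceftriaxone cords. Of its other 5 probe sets, 4 rose in SMA vehicle cords by 0.71 to 1.01, and the dimmest was not called at -0.03.

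Hnrnpa1, a repressor of many exons, had signals of 1558, 1521, 1397 and 1580.4 in SMA ceftriaxone cords, 2001, 2210.5, 2442 and 2445 in SMA vehicle cords, and 1294, 2254, 1338 and 1143 in wildtype cords. Wildtype array 2 lay among the SMA vehicle arrays, and the other wildtype arrays were below all the rest. Between SMA vehicle and wildtype cords its log2 difference was 0.64 ± 0.16 (adjusted p = 0.00613) with all arrays and 0.84 ± 0.08 (adjusted p = 3.65e-06) without that array, and -0.58 ± 0.16 (adjusted p = 0.0149) in SMA ceftriaxone cords. Hnrnpa1 has near-identical copies in the genome and this probe set can cross-hybridise, so its level is uncertain. A second probe set rose by 0.75 (adjusted p = 0.00471) in SMA vehicle cords. Hnrnph3, of the family that binds G runs, had signals of 469.8, 545.6, 493.1 and 454.8 in SMA ceftriaxone cords, 617.0, 617.1, 859.4 and 741.9 in SMA vehicle cords, and 415.4, 527.2, 453.1 and 389.1 in wildtype cords. SMA vehicle arrays were above all others. Hnrnph3 rose by 0.64 ± 0.12 log2 units (adjusted p = 0.00084) in SMA vehicle cords, and the log2 difference in SMA ceftriaxone cords was -0.51 ± 0.12 (adjusted p = 0.00647).

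Hnrnpd (AUF1), which also binds AU-rich elements in mature transcripts, had signals of 1857, 1665, 2039.7 and 1408 in SMA ceftriaxone cords, 2537, 2579.8, 2497 and 2689 in SMA vehicle cords, and 1519.7, 2999.6, 1406 and 1390.5 in wildtype cords. Wildtype array 2 was the highest of the 12 and the other wildtype arrays were among the lowest. The rise in SMA vehicle cords, 0.57 ± 0.20 (adjusted p = 0.0337), was lost without SMA vehicle array 1, 2, 3 or 4, or wildtype array 1, 3 or 4 (highest adjusted p = 0.0988). Without wildtype array 2 it was 0.83 ± 0.10 (adjusted p = 1.58e-05). The log2 difference in SMA ceftriaxone cords was -0.57 ± 0.20 (adjusted p = 0.042), and that call was lost without SMA ceftriaxone array 1, 2 or 4, or SMA vehicle array 1, 2, 3 or 4 (highest adjusted p = 0.121). Hnrnpl, which binds CA repeats, had signals of 677.8, 620.7, 763.5 and 518.5 in SMA ceftriaxone cords, 846.8, 885.4, 879.3 and 1072 in SMA vehicle cords, and 632.7, 903.7, 475.8 and 579.3 in wildtype cords. Here too wildtype array 2 lay among the SMA vehicle arrays. Its rise of 0.53 ± 0.17 (adjusted p = 0.0205) was lost without SMA vehicle array 4, or wildtype array 3 or 4 (highest adjusted p = 0.0671). In SMA ceftriaxone cords it was -0.51 ± 0.17 (adjusted p = 0.0317), and that call was lost without SMA ceftriaxone array 2 or 4, or SMA vehicle array 2, 3 or 4 (highest adjusted p = 0.0985).

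The other hnRNP genes that rose in SMA vehicle cords were Hnrnph1 (0.50 ± 0.11), Hnrnpr (0.35 ± 0.10) and Hnrnpk (0.20 ± 0.06). By their brightest probe sets, Hnrnpll, Hnrnpul1, Hnrnpab and Hnrnpu passed without wildtype array 2 only, by 0.46, 0.42, 0.19 and 0.15. The second Hnrnpll probe set was called with all arrays. Its difference was 0.28 (adjusted p = 0.0176) in SMA vehicle cords and -0.29 (adjusted p = 0.0221) in SMA ceftriaxone cords. In SMA ceftriaxone cords Hnrnph1 (-0.48 ± 0.11) and Hnrnpr (-0.30 ± 0.10) fell, as did Hnrnpc (-0.25 ± 0.08), while Hnrnpk was not called at -0.05 ± 0.06. The dimmest Hnrnpk probe set rose there by 0.21 (adjusted p = 0.0432). Its others were not called with all arrays, at -0.19 (adjusted p = 0.0973) and -0.11 (adjusted p = 0.278), and the former fell without wildtype array 2 (adjusted p = 0.0115). In SMA vehicle cords, with all arrays, these dimmer Hnrnpk probe sets differed by 0.08 (adjusted p = 0.41), 0.32 (adjusted p = 0.0074) and 0.09 (adjusted p = 0.315). The fall of Hnrnpr was lost without SMA ceftriaxone array 2, 3 or 4, or SMA vehicle array 2, 3 or 4 (highest adjusted p = 0.0883), and that of Hnrnpc was lost without SMA ceftriaxone array 2, 3 or 4, or SMA vehicle array 2, 3 or 4 (highest adjusted p = 0.077). Hnrnph1 had a second, much dimmer probe set that was not called in either comparison, and the mean of its probe sets was not called. By their brightest probe sets, Hnrnpa2b1, Hnrnpc, Hnrnpf, Hnrnph2, Hnrnpm and Hnrnpul2 were not called in SMA vehicle cords in either fit. Of these, Hnrnpf was the lowest, at -0.39 ± 0.18 with all arrays and -0.14 ± 0.08 without wildtype array 2. Without that array, dimmer probe sets of Hnrnpa2b1 rose by 0.81 (adjusted p = 0.000338) and 0.47 (adjusted p = 0.00547), and a further one was not called (0.30, adjusted p = 0.127). The dimmer Hnrnpul2 probe set rose there by 0.35 (adjusted p = 0.00594).

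SR proteins bind exonic enhancers and recruit the spliceosome. With all arrays, 1 of 9 SR genes rose in SMA vehicle cords (Srsf5) and 1 fell (Srsf10). These shares, 11.1% each, were below the 25.5% and 23.6% of all genes tested. Leaving out wildtype array 2, 5 rose (Srsf2, Srsf3, Srsf4, Srsf5 and Srsf11) and Srsf10 fell. These shares were 55.6% and 11.1%, against 31.1% and 29.0% of all genes. Srsf10 rose in SMA ceftriaxone cords, and Srsf3, Srsf5 and Srsf6 fell, while 19.9% of all genes rose and 17.8% fell. Srsf5, an SR protein that shuttles between nucleus and cytoplasm, had signals of 3835, 3868, 4213 and 4248 in SMA ceftriaxone cords, 6055, 6128, 6849.6 and 6599 in SMA vehicle cords, and 3745, 4742, 3208 and 3282 in wildtype cords. The SMA vehicle arrays stood well above all others. It rose by 0.79 ± 0.11 log2 units (adjusted p = 6.31e-05) in SMA vehicle cords, and the log2 difference in SMA ceftriaxone cords was -0.66 ± 0.11 (adjusted p = 0.000509). Srsf3, the smallest SR protein, had signals of 2941, 2396, 3041 and 2582 in SMA ceftriaxone cords, 3782, 3535, 4109 and 3964 in SMA vehicle cords, and 2886, 4656, 2681 and 2503 in wildtype cords. Wildtype array 2 was the highest of the 12. Its log2 difference in SMA vehicle cords was not called at 0.32 ± 0.16 (adjusted p = 0.119), and without that array it was 0.51 ± 0.09 (adjusted p = 0.000241). The fall in SMA ceftriaxone cords, -0.49 ± 0.16 (adjusted p = 0.0278), was lost without SMA ceftriaxone array 2 or 4, or SMA vehicle array 3 or 4 (highest adjusted p = 0.0842). Of the 4 other tested Srsf3 probe sets, 3 rose in SMA vehicle cords with all arrays, by 0.44 to 0.64. Srsf1, known for its action on SMN2, was not called in SMA vehicle cords (-0.22 ± 0.16 with all arrays, -0.02 ± 0.10 without wildtype array 2) or in SMA ceftriaxone cords (-0.05 ± 0.16). Its other probe sets were not called either with all arrays. Without wildtype array 2, a dimmer one rose in SMA vehicle cords by 0.30 (adjusted p = 0.0101). That probe set fell in SMA ceftriaxone cords by 0.32 (adjusted p = 0.00591), and the rest were not called.

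Srsf10, whose protein represses splicing once dephosphorylated in heat shock and mitosis, had signals of 994.9, 901.9, 850.6 and 672.6 in SMA ceftriaxone cords, 588.5, 584.7, 582.8 and 615.0 in SMA vehicle cords, and 730.3, 1284, 729.6 and 1026 in wildtype cords. SMA vehicle arrays were closely grouped below all others, and both other groups were widely spread. Its log2 difference was -0.61 ± 0.17 (adjusted p = 0.00834) in SMA vehicle cords (-0.45 ± 0.13, adjusted p = 0.0109, without wildtype array 2). In SMA ceftriaxone cords it was 0.50 ± 0.17 (adjusted p = 0.0314), and that call was lost without SMA ceftriaxone array 1, 2 or 3, or SMA vehicle array 1, 2, 3 or 4 (highest adjusted p = 0.0859). The rise in SMA ceftriaxone cords rests on the brightest of 4 probe sets. With all arrays the 3 others differed by -0.38 (adjusted p = 0.041), -0.47 (adjusted p = 0.0789) and -0.12 (adjusted p = 0.537) in SMA vehicle cords, and by 0.14, 0.03 and -0.14 in SMA ceftriaxone cords, none of these last called. In the same order, without wildtype array 2, their differences in SMA vehicle cords were -0.22 (adjusted p = 0.0552), -0.20 (adjusted p = 0.112) and 0.01 (adjusted p = 0.965). The fall without that array thus also rests on the brightest probe set. With the mean of all its probe sets Srsf10 was not called in SMA ceftriaxone cords.

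Srsf6, an SR protein that binds exonic enhancers, had probe sets that differed from each other, and was chosen for description after its values were seen. The brightest probe set of Srsf6 had signals of 2461, 2089.8, 2086 and 1749 in SMA ceftriaxone cords, 2749, 2806, 3049.8 and 2984 in SMA vehicle cords, and 2469.7, 4291, 2658 and 2592 in wildtype cords. The SMA ceftriaxone arrays were lowest, and the SMA vehicle arrays lay just above 3 wildtype arrays but below wildtype array 2. The log2 difference was -0.01 ± 0.15 (adjusted p = 0.948) in SMA vehicle cords and -0.47 ± 0.15 (adjusted p = 0.0284) in SMA ceftriaxone cords, where the call was lost without SMA ceftriaxone array 2, 3 or 4, or SMA vehicle array 3 or 4 (highest adjusted p = 0.0891). A second probe set had signals of 799.4, 920.8, 924.2 and 871.6 in SMA ceftriaxone cords, 1249.5, 1363, 1571 and 1577 in SMA vehicle cords, and 645.0, 983.6, 642.9 and 565.4 in wildtype cords. SMA vehicle arrays were clear above the rest. The last probe set had signals of 1951, 1936, 2131 and 1891 in SMA ceftriaxone cords, 3211, 3668, 3475 and 3674 in SMA vehicle cords, and 1563, 2397, 1142 and 1349.8 in wildtype cords. There too no SMA vehicle array overlapped the others. These 2 rose in SMA vehicle cords by log2 differences of 1.03 (adjusted p = 7.89e-05) and 1.17 (adjusted p = 9.49e-05), and fell in SMA ceftriaxone cords by 0.70 (adjusted p = 0.00239) and 0.82 (adjusted p = 0.00219). Which transcripts each probe set reads was not examined. Over all members, 67 further probe sets were tested. In SMA vehicle against wildtype cords 21 of them were called in the same direction as their gene's brightest one, and in SMA ceftriaxone against SMA vehicle cords likewise 21. In SMA ceftriaxone against wildtype cords this held for 1. No probe set was called in the direction opposite to a called brightest one in these comparisons.

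**Figure D4:**
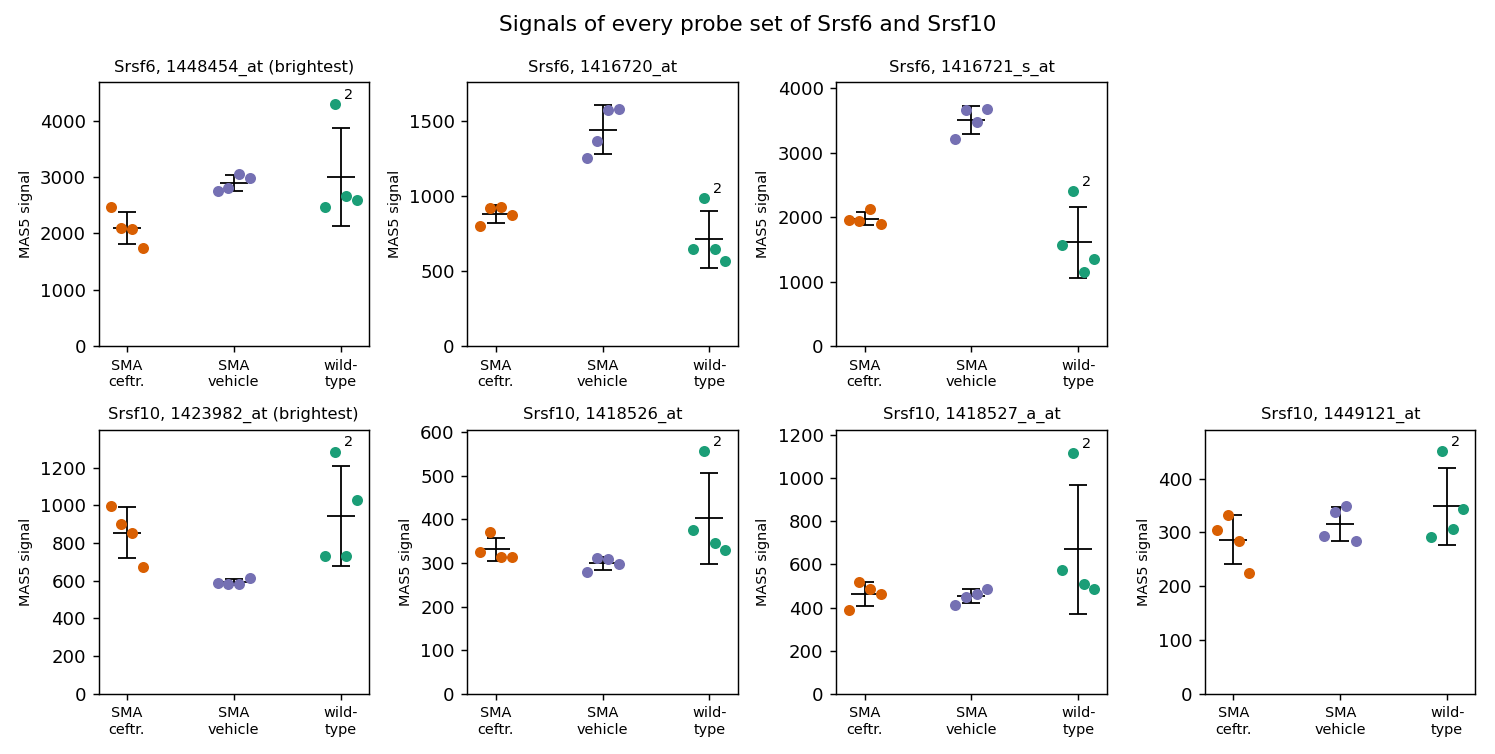
MAS5 signal of each probe set of Srsf6 (upper panels) and Srsf10 (lower panels) by array, with SMA ceftriaxone, SMA vehicle and wildtype groups from left to right and the mean and SD of 4 arrays. The 2 dimmer Srsf6 probe sets are highest in SMA vehicle cords, while in the brightest wildtype array 2 lies above them, and SMA vehicle arrays lie below all others for the brightest Srsf10 probe set and, by a narrow margin, for 1 of the other 3.

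**Figure D5:**
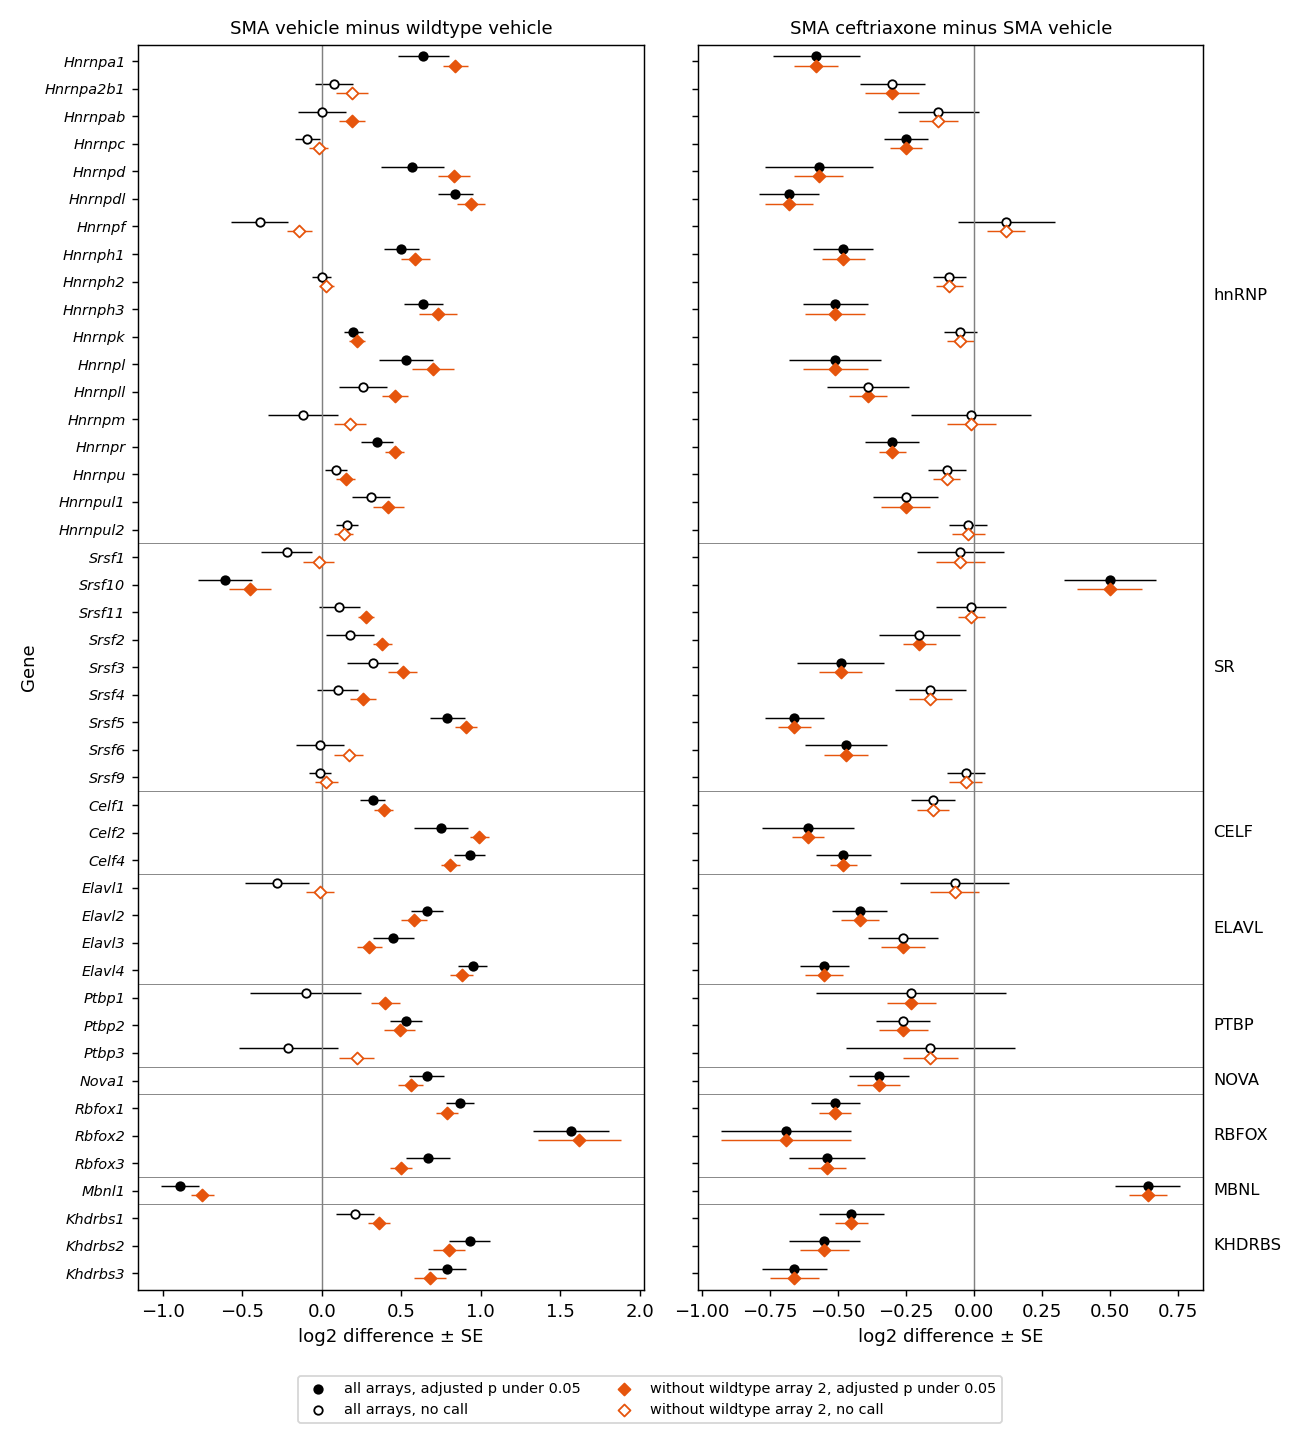
Log2 difference with its SE for the 45 tested splicing regulators, by family, for SMA vehicle minus wildtype (left) and SMA ceftriaxone minus SMA vehicle (right), with all arrays (circles) and without wildtype array 2 (diamonds), filled where the adjusted p is under 0.05. Most genes lie right of 0 in the left panel and left of 0 in the right panel, with Mbnl1 and Srsf10 on the other sides, and Ptbp1 crosses 0 in the left panel when wildtype array 2 is left out.

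SMA ceftriaxone cords were also set against wildtype cords. Of the 45 members, 3 rose (Celf4, Elavl4 and Rbfox1), 1 fell (Hnrnpc) and the median difference was 0.02, while 3.84% of all genes tested rose and 0.962% fell. The log2 difference was 0.45 ± 0.10 (adjusted p = 0.0274) for Celf4, 0.40 ± 0.09 (adjusted p = 0.0228) for Elavl4, 0.36 ± 0.09 (adjusted p = 0.0355) for Rbfox1 and -0.34 ± 0.08 (adjusted p = 0.0328) for Hnrnpc. That of Celf4 was lost without SMA ceftriaxone array 1, 2, 3 or 4 (highest adjusted p = 0.085). Elavl4's was lost without SMA ceftriaxone array 1 or 3, or wildtype array 3 (highest adjusted p = 0.0833), that of Rbfox1 was lost without SMA ceftriaxone array 1, 2, 3 or 4, or SMA vehicle array 2, 3 or 4, or wildtype array 3 or 4 (highest adjusted p = 0.0854), and that of Hnrnpc was lost without SMA ceftriaxone array 2, 3 or 4, or SMA vehicle array 2 or 3, or wildtype array 3 or 4 (highest adjusted p = 0.105). All 4 calls were lost under median centring, with Xist signal or the Gapdh 3′ to 5′ ratio as a covariate, and with only the groups compared, and the call of Elavl4 alone was kept with the replicate number as a block. Quantile normalisation ended the call of Hnrnpc, no filter that of Rbfox1, no intensity trend both of these, and the mean of all probe sets those of Elavl4 and Hnrnpc. At an unadjusted p under 0.05 in the same limma fit, 10 members were higher and 2 lower. Leaving out wildtype array 2, 9 members rose, 1 fell and the median was 0.16, against 7.13% and 4.5% of all genes. The arrays of the groups did not overlap for 7 members higher and 3 lower in SMA ceftriaxone cords with all arrays, against 8.77% and 4.07% of all genes, and for 14 and 3 without wildtype array 2, against 14.2% and 11.6%. Hnrnpc had signals of 4545, 4026, 3958 and 3855 in SMA ceftriaxone cords, 4527, 4959.8, 5029.6 and 4994 in SMA vehicle cords, and 4894, 6029, 4918 and 4998 in wildtype cords. The SMA ceftriaxone arrays were below every wildtype array, and SMA ceftriaxone array 1 overlapped SMA vehicle array 1.

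Outside the 9 families, a list of 49 further splicing regulators was measured, of which 43 were tested. In SMA vehicle cords 9 rose and 1 fell, with a median of 0.13, against 25.5% and 23.6% of all genes tested. The numbers were 22 and 1 without wildtype array 2, with a median of 0.23, against 31.1% and 29.0%. The share of the list that rose was thus no higher than that of all genes with all arrays, and higher without wildtype array 2. With ceftriaxone, 1 rose and 5 fell in SMA cords, with a median of -0.14, against 19.9% and 17.8% of all genes, both above the list's shares. These numbers were 2 and 15 without wildtype array 2, against 26.5% and 25.6%, so that the list's share that fell was then above that of all genes. The 3 largest rises in SMA vehicle cords were those of Pspc1, Srrm2 and Pcbp3. Pspc1, a paraspeckle protein, had signals of 1071, 1036, 1053 and 949.0 in SMA ceftriaxone cords, 1289, 1521, 1646 and 1199 in SMA vehicle cords, and 1114, 1009, 699.5 and 696.6 in wildtype cords. It rose by 0.69 ± 0.15 log2 units (adjusted p = 0.00199), with every SMA vehicle array above all others. Srrm2, a spliceosome scaffold of nuclear speckles, had signals of 1001, 837.7, 767.4 and 689.4 in SMA ceftriaxone cords, 1297, 1197, 1172 and 1056 in SMA vehicle cords, and 863.6, 871.9, 614.6 and 648.5 in wildtype cords. This gene rose by 0.66 ± 0.14 log2 units (adjusted p = 0.00148), again without overlap. Pcbp3, a poly(C)-binding protein, had signals of 1765, 1583, 1516 and 1408 in SMA ceftriaxone cords, 1938, 2017, 1983 and 1953 in SMA vehicle cords, and 1431, 991.0, 1359 and 1359.8 in wildtype cords. Its rise was 0.63 ± 0.11 (adjusted p = 0.000384), and the SMA vehicle arrays were the highest. Qk, the quaking gene that oligodendrocytes need for myelin transcripts, was the one that fell. It had signals of 9922, 9224, 9898 and 9202 in SMA ceftriaxone cords, 6296, 6229.9, 4689.9 and 4526 in SMA vehicle cords, and 9444, 8972, 14018 and 11999 in wildtype cords. SMA vehicle cords were lowest without overlap. The Qk difference was -1.02 ± 0.14 (adjusted p = 8.01e-05) in SMA vehicle cords and 0.83 ± 0.14 (adjusted p = 0.000765) in SMA ceftriaxone cords against SMA vehicle. The 3 largest falls in SMA ceftriaxone cords were those of Srrm2 (-0.52 ± 0.14, adjusted p = 0.00983), Rbm17, a splice-site factor (-0.45 ± 0.16, adjusted p = 0.0435), and Pspc1 (-0.44 ± 0.15, adjusted p = 0.0346). Rbm17 had signals of 1365, 1073, 1344 and 1253 in SMA ceftriaxone cords, 1630.4, 1647, 1825 and 1758 in SMA vehicle cords, and 1174, 1857, 1080.1 and 974.1 in wildtype cords. Wildtype array 2 was the highest of these, and SMA ceftriaxone arrays lay below all SMA vehicle arrays. The 2 Tra2 genes passed in neither comparison with all arrays; without wildtype array 2, 1 rose in SMA vehicle cords and 1 fell in SMA ceftriaxone cords.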

How the data were processed

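RNA of 12 mouse spinal cords was read on 12 Affymetrix arrays, 4 in each of 3 groups. The deposited values are MAS5 signals, a linear probe-set intensity, scaled by the authors to 1 target on every array (MAS5 per the submitters' processing notes; the trimmed mean, leaving out 2% at each end, was 700.2 to 700.3). Array number, with no counts behind a value, limits the precision. Signals were taken as log2(signal + 16), and 13575 probe sets above the 40th percentile of mean log2 signal were kept. limma 3.58.1 in R 4.3.3 fitted group means over all arrays, with an intensity trend in eBayes and Benjamini-Hochberg adjustment at 0.05, and was tested on simulated data. Symbols came from the platform annotation of 2016. Of 22690 probe sets, 20393 carried 1 symbol, 691 several and 1606 none. Tables and plots used Python 3.11.15, pandas 2.3.3 and matplotlib 3.10.9. Members and lists were chosen with earlier results of these data known. Every array's signal is given for each member past the threshold in either comparison with SMA vehicle cords, and for hnRNP and SR genes for the 5 largest of these against wildtype and the 3 largest with ceftriaxone; of the other regulators, for the 3 largest rises and falls. Srsf6, Ptbp1, Mbnl3 and Hnrnpc fall outside this and were added after their values were seen. Alternatives changed offset, filter, scaling, model, probe-set choice and the arrays used, and 2 of them (Xist as a covariate without wildtype array 2, and arrays of high Xist alone) were added after seeing the data.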

Additional observations from a re-analysis of the deposited data

Results flagged for a closer look

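For each of the 46 splicing regulators and 3 groups, the most extreme of the 4 arrays was set against its neighbours. Its gap to the nearest array, as a share of the group's range, passed Dixon's critical value for 4 samples in 22 of 138 cases, where chance gives about 1 in 20, or 6.9. Wildtype array 2 was the extreme one in 17 of these. It was high for Mbnl3 (0.992), Ptbp1 (0.980), Hnrnpm (0.950), Ptbp3 (0.939), Hnrnpdl (0.931), Hnrnpd (0.920), Srsf2 (0.913), Celf2 and Hnrnpc (0.909 each), Hnrnpr (0.897), Srsf6 (0.896), Khdrbs1 (0.889), Srsf11 (0.871), Mbnl1 (0.862), Hnrnph1 (0.852) and Hnrnpf (0.832), and low for Celf4 (0.931). Among other arrays, wildtype array 3 was low for Rbfox2 (0.850). SMA vehicle array 4 was low for Hnrnph2 (0.846), array 3 low for Srsf4 (0.911), array 2 high for Hnrnpul1 (0.884) and array 1 low for Hnrnpc (0.861).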

How the results depend on the processing

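Leaving out 1 array at a time, the number of members higher in SMA vehicle than wildtype cords ranged from 20 to 32 and lower from 2 to 3, with a median of 0.22 to 0.40. For SMA ceftriaxone against SMA vehicle cords the ranges were 1 to 2 higher and 14 to 29 lower, with a median of -0.33 to -0.27, and against wildtype cords 0 to 9 higher and 0 to 1 lower, with a median of -0.02 to 0.16. Of the other splicing regulators, 8 to 22 were higher and 1 lower in SMA vehicle cords, and 1 to 2 higher and 1 to 15 lower in SMA ceftriaxone cords. Each upper end for higher calls against wildtype came without wildtype array 2. Ptbp1 in SMA vehicle cords ranged from -0.29 to 0.40 when 1 array was left out, reversing without wildtype array 2, and was 0.39 without it and with Xist as a covariate. Xist with that array left out gave 21 other regulators higher in SMA vehicle cords, and array weights gave 22. In SMA ceftriaxone against SMA vehicle cords, Xist as a covariate left 11 members lower, and the mean of all probe sets left 1 higher. The other regulators lower there numbered 3 under quantile normalisation, without a filter and with the replicate number as a block, 11 under median centring, 16 under array weights and with only the groups compared, 0 with Xist as a covariate (limma), 13 with Xist and without wildtype array 2, and 10 on the arrays of high Xist; those higher numbered 2 under array weights, on the arrays of high Xist and with only the groups compared. In SMA ceftriaxone against wildtype cords, members higher numbered 0 under median centring, with Xist or the Gapdh 3′ to 5′ ratio as a covariate and with only the groups compared (limma), 9 under array weights, 1 with the replicate block and 6 with Xist and without wildtype array 2. Members lower there numbered 2 under array weights and 0 under quantile normalisation, median centring, no trend, the replicate block, Xist, Gapdh, the mean of probe sets, Xist without wildtype array 2, and only the groups compared. The median there was 0.13 under array weights and 0.15 with Xist and without wildtype array 2, against 0.02. The cause of these shifts was not tested. Deviations of same-numbered arrays of different groups were only weakly correlated (12 pairs, r from -0.143 to 0.133). For arrays of different number, r ranged from -0.272 to 0.204. Weak correlations cannot exclude that the numbers pair the mice, so pairing was not settled. With the replicate number as a block, 23 members were higher and 2 lower in SMA vehicle cords, and 2 higher and 20 lower in SMA ceftriaxone against SMA vehicle cords. For the 75 pairs of a gene and a comparison called with all arrays or without wildtype array 2, 1979 values under alternatives were obtained. Of these, 76 became calls, 140 lost the call and 2 reversed. The other 1761 kept their call and direction, or were called neither with all arrays nor under the alternative, whatever their sign. Uncalled differences also changed sign without wildtype array 2, so that among all 45 members the sign turned for 6 in SMA vehicle against wildtype cords (Hnrnph2, Hnrnpm, Ptbp1, Ptbp3, Srsf6 and Srsf9) and for 12 in SMA ceftriaxone against wildtype cords.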
